A study of Rattus norvegicus with 10 samples.

Results

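The liver's hepatocyte identity transcription factors were followed here as a set of 9 genes, Hnf4a, Foxa1, Foxa2, Foxa3, Cebpa, Cebpb, Onecut1, Nr5a2 and Prox1, in bulk liver RNA of rats after sleeve gastrectomy (SG), an operation that removes most of the stomach, and of sham-operated rats (SHAM). The members were chosen by name: every isoform that the deposited table gives to one of these gene symbols with a class code of =, c, j or o (StringTie's codes for a complete match, a contained transcript, a shared splice junction and another same-strand exon overlap) was summed per gene and library. This took in 30 isoforms, 11 annotated and 19 assembled from the reads, of 51430 isoforms in all, and 9 of 20226 genes. All 9 genes passed the filter on low values, a mean of at least 1 FPKM (fragments scaled to transcript length and library size), together with 11139 genes in all. Both groups were wild-type Wistar rats given a diet with 60% of its energy from fat for 4 weeks and then streptozotocin, which destroys the insulin-producing beta cells, at 35 mg/kg after a 16 h fast, so that the SHAM rats carried the same diabetes model as the SG rats. The 5 SG livers were labelled as taken 3 months after surgery, and the labels name no time for the 5 SHAM livers, so a difference in time and the operation cannot be told apart. The labels do not say that each library came from its own rat, so the p-values measure the spread between these libraries.

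These factors bind one another's promoters and keep one another switched on, and together they hold open the chromatin of the genes that make a hepatocyte. HNF4A and NR5A2 are nuclear receptors, the FOXA proteins are pioneer factors that bind closed chromatin, and the C/EBP proteins are leucine zipper factors, of which C/EBPα is linked to the resting, metabolic state and C/EBPβ to the acute phase response, regeneration and gluconeogenesis. ONECUT1 (HNF6) and PROX1 are homeodomain factors that act early in liver development and stay on in the adult, and PROX1 is also a corepressor of HNF4A and NR5A2.

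None of the 9 genes differed between SG and SHAM livers at an adjusted p under 0.05 (edgeR quasi-likelihood test, Benjamini-Hochberg adjustment over 11139 genes), and neither did any other gene: the share called was 0.0%. By DESeq2, 18 genes (0.162%) were called, none of them a member. At an unadjusted p under 0.05, 1 of the 9 members, Cebpb, stood beside 505 of 11139 genes (4.53%; 2.68% higher and 1.85% lower in SG). By the unadjusted p of DESeq2 the share was 5.62%. By that of limma on log2(FPKM + 0.5) it was 6.28%, with 646 genes higher and 54 lower in SG. In limma the median log2 fold change over all tested genes was 0.08. By edgeR, the log2 fold change of SG over SHAM was positive in 5 members and negative in 4, with a median of 0.05, against a median of -0.01 over all tested genes. Hnf4a, Nr5a2 and Prox1 had the narrowest 95% intervals of the log2 fold change, and Onecut1 the widest. The libraries held 77617460 to 92110190 estimated counts in SG and 65824088 to 85520959 in SHAM, and the members' own estimated counts ran from 588 (Onecut1, SHAM 5) to 77340 (Hnf4a, SG 4).

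**Figure D1:**
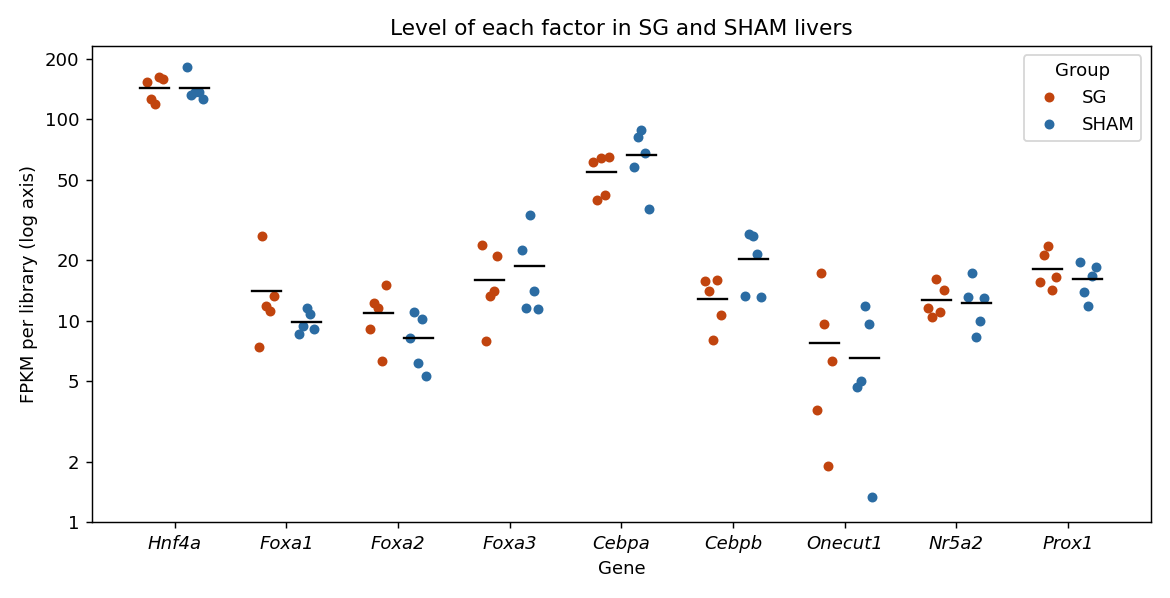
Level of each of the 9 genes in FPKM on a log axis, 1 point per liver library and a bar at the group mean, SG left of SHAM (5 libraries each). Hnf4a and Cebpa lie above the other 7 genes in every library, and for each gene the points of both groups overlap.

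The members formed 3 tiers of abundance on the FPKM scale, which is per length and so can be set side by side between genes. Hnf4a averaged 143 FPKM over the 10 libraries, a level above that of 97.3% of tested genes, and Cebpa averaged 60.5 FPKM. Hnf4a was above Cebpa, and Cebpa above Foxa3, in 10 of 10 libraries, without overlap of their ranges. The remaining 7 genes followed closely, with means of 17.3 for Foxa3, 17.1 for Prox1, 16.5 for Cebpb, 12.5 for Nr5a2, 12.0 for Foxa1, 9.55 for Foxa2 and 7.12 FPKM for Onecut1. Neighbours within this lower tier did not separate beyond their spread: Foxa3 was above Prox1 in 4 of 10 libraries, Prox1 above Cebpb in 5 and Nr5a2 above Foxa1 in 6. Cebpb was above Nr5a2 in 3 of 5 SG livers and in 5 of 5 SHAM livers.

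Of the cell type markers read in these bulk liver libraries, those of hepatocytes had the highest sum in every library. The 9 hepatocyte markers in the table summed to 39383 to 52054 FPKM in SG and 33872 to 46636 FPKM in SHAM, and all 9 were at a mean of at least 1 FPKM. Markers of bile duct cells, which also use Onecut1 and Foxa genes, summed to 23.4 to 32.5 FPKM in SG and 20.9 to 26.2 FPKM in SHAM over 8 genes, of which 3, Epcam and Onecut2 among them, reached a mean of 1 FPKM, while Krt7 was at or near 0. One SG library, SG 2, stood apart, with 88.6 FPKM of 7 stellate and fibroblast markers, against 32.7 to 44.8 FPKM in the other SG livers and 24.7 to 49.4 FPKM in SHAM, and 442 FPKM of 8 macrophage markers, beside 406 FPKM in SHAM 5. Since PROX1 is also made by lymphatic endothelium, 6 endothelial markers were read: they summed to 50.7 to 72.5 FPKM in SG and 35.7 to 76.1 FPKM in SHAM, with the lymphatic marker Pdpn at or near 0. The remaining lists were low in every library: neutrophil markers, with Mpo at 0 in all 10 libraries, at 0.774 to 3.15 FPKM in SG and 0.0282 to 1.42 FPKM in SHAM, pancreatic acinar markers at 0.823 to 2.20 FPKM in SG and 0.851 to 3.96 FPKM in SHAM, and fetal or cycling hepatocyte markers at 3.24 to 6.25 FPKM in SG and 2.15 to 4.91 FPKM in SHAM. In bulk tissue, fewer cells of a type and less RNA per cell cannot be told apart.

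Hnf4a, the nuclear receptor that keeps the lipoprotein, clotting and bile acid genes of the hepatocyte active, was expressed at 153, 126, 119, 162 and 159 FPKM in SG livers 1 to 5 and at 181, 132, 136, 137 and 126 FPKM in SHAM livers 1 to 5. The groups overlapped, and SHAM 1 was the highest library. The means were 144 ± 20.1 FPKM in SG livers and 142 ± 21.9 FPKM in SHAM livers (SD, n = 5 each), and the log2 fold change was -0.07 ± 0.14 (SE; edgeR, adjusted p = 0.993). The 95% interval of the fold, 0.769 to 1.19, leaves room for a change of moderate size in either direction. Hnf4a, on chromosome 3, plus strand, from 159902441 to 159965003 of Rnor_6.0, was the least variable member, with a coefficient of variation of 13.9% over the 10 libraries, below the median of 19.7% over all tested genes.

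The split of Hnf4a between 2 of its isoforms differed between livers. The gene is known to have an upstream promoter (P2), used in fetal liver, pancreas and gut, and a downstream promoter (P1), which dominates in adult liver, and the table holds annotated isoforms from both starts, 34415 bp apart. Both RefSeq promoters of rat Hnf4a (assembly GRCr8, plus strand, 250 bases before to 50 after the start) are printed here to show the sequence at the gene's 2 annotated start regions; that the isoforms of the table start at these promoters was not tested. Capitals mark the letters ATCAAT (the core of ONECUT sites).

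Hnf4a upstream, chr3:172605970-172606269: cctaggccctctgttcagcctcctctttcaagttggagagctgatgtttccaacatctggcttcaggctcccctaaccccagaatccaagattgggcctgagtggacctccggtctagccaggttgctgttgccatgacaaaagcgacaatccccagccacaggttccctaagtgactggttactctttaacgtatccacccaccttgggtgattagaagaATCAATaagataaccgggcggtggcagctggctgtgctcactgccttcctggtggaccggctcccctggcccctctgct
Hnf4a downstream, chr3:172641586-172641885: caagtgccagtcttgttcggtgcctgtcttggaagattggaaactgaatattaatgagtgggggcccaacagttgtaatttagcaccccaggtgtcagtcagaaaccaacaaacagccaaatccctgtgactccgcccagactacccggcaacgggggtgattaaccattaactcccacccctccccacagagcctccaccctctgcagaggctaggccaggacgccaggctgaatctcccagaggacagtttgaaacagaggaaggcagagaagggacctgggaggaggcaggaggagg

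The upstream promoter holds ATCAAT once, at base 222 of the 300 counted from 1, which 8.06% of all 33469 promoters in the same set hold on one strand or the other. The downstream promoter does not hold these letters, and neither promoter holds the searched letters for FOXA (TGTTTAC, in 3.78% of promoters), C/EBP (TTGCNNAA, 10.6%), HNF4 (CAAAGTC, 4.61%), NR5A2 (AAGGTCA, 4.61%) or the TATA box (TATAAA, 14.2%), all searched on both strands. Letters that match are not a measured binding site. RefSeq promoters were found for Foxa2, Foxa3, Cebpa, Cebpb and Nr5a2 as well, and ATCAAT was in Foxa2. Counted from the start, TATAAA on one strand or the other was at -35 in Cebpa, -33 in Cebpb and -82 in Foxa3. In Foxa2 it was at -207 and -205. The RefSeq promoter of Foxa2 lies on the minus strand of GRCr8, whereas the Foxa2 isoforms summed here lie on the plus strand of Rnor_6.0. The cause of this difference was not tested.

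The annotated isoform with the upstream start, ENSRNOT00000089893, was assigned 49.7 FPKM in SG 3 and 0 in the other 4 SG livers. In SHAM livers it was assigned 44.9 FPKM in SHAM 5, 2.86 FPKM in SHAM 3 and 0 in the other 3. It thus took up to 41.8% of Hnf4a in 1 library of each group. The isoform with the downstream start, ENSRNOT00000078703, ran the other way, at 70.0, 57.8, 6.35, 76.2 and 73.3 FPKM in SG livers 1 to 5 and 75.4, 59.5, 65.1, 57.7 and 17.2 FPKM in SHAM livers 1 to 5. The sum of both isoforms was steady, between 56.0 and 76.2 FPKM in SG livers and between 57.7 and 75.4 FPKM in SHAM livers. Another isoform, MSTRG.15779.5, which starts 100 bp from the annotated downstream start, held 47.9% to 54.5% of Hnf4a in every library, with 72.3 ± 8.60 FPKM in SG livers and 72.9 ± 14.2 FPKM in SHAM livers (SD, n = 5 each).

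A second annotated isoform with an upstream start, ENSRNOT00000011978, did not follow the first. It was at 0.110 FPKM in SG 3 and 0.238 to 0.813 FPKM in the other SG livers, against 0.515 FPKM in SHAM 5 and 0.464 to 0.547 FPKM in the other SHAM livers. Isoform values are estimates that divide reads among transcripts sharing most of their exons, and whether SG 3 and SHAM 5 hold more RNA from the upstream start was not tested. Of the 27 member isoforms with a test, 1, the sole isoform of Cebpb, had an unadjusted p under 0.05, beside 4.12% of all 39559 isoforms (1.96% lower in SG, as Cebpb was), and none was called after adjustment (0.0%; edgeR, adjusted p = 1.0 for each).

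**Figure D2:**
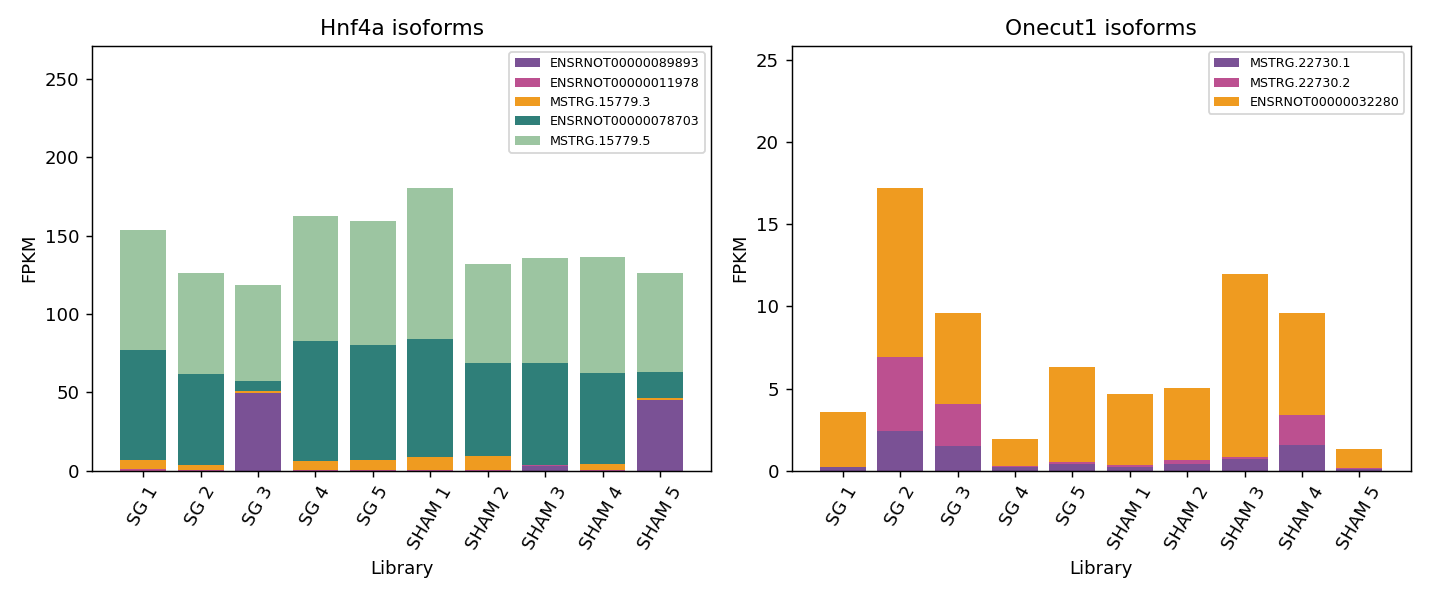
FPKM of each isoform of Hnf4a (left) and Onecut1 (right) in every library, stacked to the gene's sum, SG libraries left of SHAM. The isoform with the upstream Hnf4a start appears at 49.7 FPKM in SG 3 and 44.9 FPKM in SHAM 5, and the assembled Onecut1 isoforms are widest in SG 2, SG 3 and SHAM 4.

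Nr5a2 (LRH-1), the nuclear receptor that drives bile acid synthesis and the small heterodimer partner gene, was expressed at 11.6, 10.5, 16.1, 11.1 and 14.2 FPKM in SG livers 1 to 5 and at 13.1, 17.2, 8.26, 10 and 13 FPKM in SHAM livers 1 to 5. The ranges overlapped almost wholly. The means were 12.7 ± 2.39 FPKM in SG livers and 12.3 ± 3.40 FPKM in SHAM livers (SD, n = 5 each), and the log2 fold change was 0.05 ± 0.17 (SE; edgeR, adjusted p = 0.993), with a 95% interval of the fold from 0.794 to 1.35. The gene lies on chromosome 13, minus strand, from 53750473 to 53870428. Its annotated isoform averaged 2.15 ± 1.09 FPKM in SG livers and 2.16 ± 0.762 FPKM in SHAM livers, while an assembled isoform, MSTRG.6454.1, held 37.5% to 72.2% of the gene. Another assembled isoform, MSTRG.6454.3, reached 4.46 FPKM in SG 4 and 1.09 FPKM in SHAM 1 and was under 1 FPKM elsewhere.

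The 3 Foxa genes, which share a forkhead DNA-binding domain and open chromatin at liver enhancers, did not share a direction, and none passed the test. Foxa1 was expressed at 7.37, 26.5, 11.8, 11.2 and 13.3 FPKM in SG livers 1 to 5 and at 8.62, 9.38, 11.6, 10.8 and 9.11 FPKM in SHAM livers 1 to 5. SG 2 was far above every other library, and the groups overlapped. The log2 fold change was 0.36 ± 0.29 (SE; edgeR, adjusted p = 0.991), with means of 14.0 ± 7.31 FPKM in SG livers and 9.91 ± 1.25 FPKM in SHAM livers (SD, n = 5 each). Without SG 2 the log2 fold change was 0.00428, and the coefficient of variation over libraries was 17.8%, against 45.1% with it. SG 2 is the library with the high stellate and macrophage markers given above, and the part of those cells in its Foxa1 level was not tested. Foxa1 lies on chromosome 6, minus strand, from 78515238 to 78549735, and its annotated isoform held 41.5% to 52.0% of its FPKM in every library.

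Foxa2, which in the liver acts on bile acid and fasting genes, was expressed at 9.11, 12.3, 11.6, 6.28 and 15.1 FPKM in SG livers 1 to 5 and at 8.24, 11.1, 6.18, 10.2 and 5.34 FPKM in SHAM livers 1 to 5. Of the 5 SG livers, 4 were above the SHAM median of 8.24 FPKM, but SG 4 was below it and the ranges overlapped. The log2 fold change was 0.34 ± 0.27 (SE; edgeR, adjusted p = 0.991), with means of 10.9 ± 3.35 FPKM in SG livers and 8.22 ± 2.49 FPKM in SHAM livers (SD, n = 5 each). The gene lies on chromosome 3, plus strand, from 142383278 to 142387481, and its annotated isoform, with 54.2% to 77.0% of the gene, averaged 6.99 ± 1.87 FPKM in SG livers and 4.78 ± 1.34 FPKM in SHAM livers.

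Foxa3, the most abundant of the 3 Foxa genes on average, was expressed at 23.8, 7.90, 13.2, 14.0 and 21.0 FPKM in SG livers 1 to 5 and at 22.4, 11.6, 33.6, 14.0 and 11.5 FPKM in SHAM livers 1 to 5. SG 2 was the lowest library and SHAM 3 the highest. With means of 16.0 ± 6.39 FPKM in SG livers and 18.6 ± 9.49 FPKM in SHAM livers (SD, n = 5 each), its log2 fold change was -0.34 ± 0.37 (SE; edgeR, adjusted p = 0.991), and without SHAM 3 it was 0.02. The gene lies on chromosome 1, minus strand, from 79920752 to 79930263, and has 1 isoform in the table. As a share of the summed FPKM of the 3 Foxa genes, Foxa3 made up 39.9% ± 15.3 in SG and 48.6% ± 12.3 in SHAM (SD, n = 5 each), with 16.9% in SG 2 and 65.5% in SHAM 3 at the ends. The sum itself was 40.9 ± 7.31 FPKM in SG livers and 36.8 ± 9.49 FPKM in SHAM livers.

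**Figure D3:**
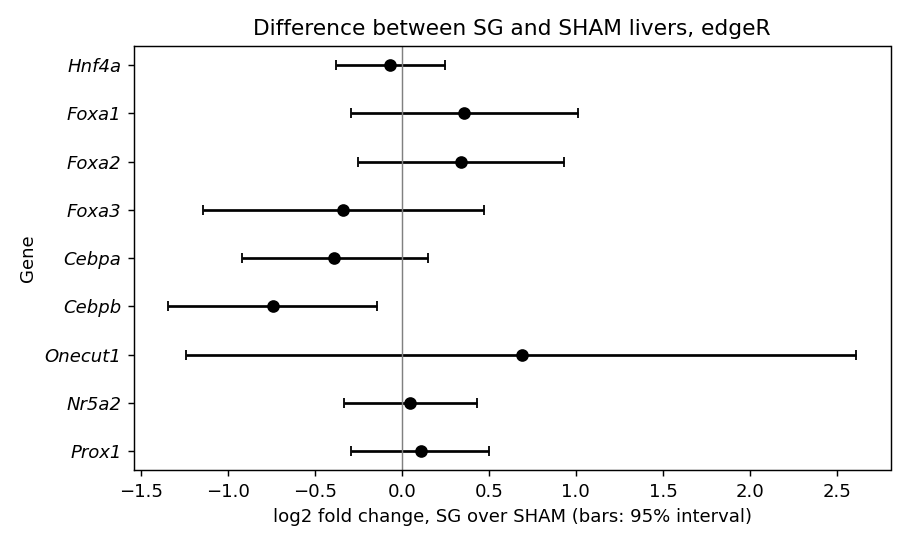
Log2 fold change of SG over SHAM for each of the 9 genes from edgeR's fit across all tested genes, points with 95% intervals, 5 libraries in each group. The interval of Cebpb, -1.34 to -0.14, lies below 0 before adjustment, the other 8 cross 0, and that of Onecut1 is the widest, from -1.24 to 2.61.

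Cebpb, the C/EBP that rises in the acute phase and in fasting, had the lowest unadjusted p of the members, although it did not pass the adjusted threshold. It was expressed at 15.7, 14.0, 8.07, 16.0 and 10.7 FPKM in SG livers 1 to 5 and at 13.3, 26.9, 26.3, 21.4 and 13.1 FPKM in SHAM livers 1 to 5. All 5 SG livers were below the SHAM median of 21.4 FPKM, but SHAM 1 and SHAM 5 were as low as the upper SG livers, so the groups overlapped. The means were 12.9 ± 3.42 FPKM in SG livers and 20.2 ± 6.72 FPKM in SHAM livers (SD, n = 5 each). The log2 fold change was -0.74 ± 0.27 (SE), with an unadjusted p of 0.0196 and an adjusted p of 0.991 by edgeR, and its rank by p among the tested genes was 180. By limma it was -0.60 (unadjusted p = 0.0383), and by DESeq2 the unadjusted p was 0.0085 and the adjusted p 0.541. Leaving out 1 library at a time gave log2 fold changes from -0.87 to -0.61 in edgeR, with unadjusted p-values from 0.00773 to 0.0531. The gene has 1 exon and 1 isoform, on chromosome 3, plus strand, from 164424515 to 164425910.

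Cebpa, which restrains proliferation and drives metabolic genes of the resting hepatocyte, was expressed at 61.5, 39.8, 64.2, 42.1 and 65.2 FPKM in SG livers 1 to 5 and at 58.1, 81.9, 88.7, 68.0 and 35.8 FPKM in SHAM livers 1 to 5. All 5 SG livers were below the SHAM median of 68.0 FPKM, and SHAM 5 was below all of them. The means were 54.5 ± 12.5 FPKM in SG livers and 66.5 ± 20.9 FPKM in SHAM livers (SD, n = 5 each), and the log2 fold change was -0.39 ± 0.24 (SE; edgeR, adjusted p = 0.991). Cebpa also has 1 exon and 1 isoform, on chromosome 1, plus strand, from 91363492 to 91366164. The ratio of Cebpa to Cebpb FPKM was 4.69 ± 2.29 in SG and 3.34 ± 0.613 in SHAM (SD, n = 5 each; two-sided exact permutation test over 252 splits, p = 0.294). It was highest in SG 3, at 7.95, and SG 5, at 6.10, and lay between 2.74 and 4.35 in SHAM.

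Onecut1, the homeodomain factor that in mouse liver acts on Hnf4a, glucokinase and bile acid genes, was the most variable member. It was expressed at 3.60, 17.2, 9.64, 1.91 and 6.31 FPKM in SG livers 1 to 5 and at 4.69, 5.02, 11.9, 9.63 and 1.34 FPKM in SHAM livers 1 to 5, a 12.9-fold range. Both groups held high and low libraries. Its coefficient of variation of 69.6% was above that of 95.9% of tested genes. The means were 7.73 ± 6.05 FPKM in SG livers and 6.51 ± 4.21 FPKM in SHAM livers (SD, n = 5 each), and the log2 fold change on estimated counts was 0.69 ± 0.87 (SE; edgeR, adjusted p = 0.993). It was -0.10 without SG 2, 1.31 without SHAM 4 and -0.14 on the annotated isoform alone.

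The annotated Onecut1 isoform, ENSRNOT00000032280, averaged 5.33 ± 3.24 FPKM in SG livers and 5.43 ± 3.63 FPKM in SHAM livers (SD, n = 5 each). The remainder lay on 2 assembled isoforms of 16935 and 18202 nt, whose start is 14816 bp upstream of the annotated one. Being long, they held a larger share of the gene's counts than of its FPKM: 83.7% of the counts in SG 2, 84.7% in SG 3 and 32.0% to 53.5% elsewhere among SG livers, against 80.5% in SHAM 4 and 36% to 53.9% elsewhere among SHAM livers. On the FPKM scale the same isoforms held 6.09% to 42.2% in SG and 7.11% to 35.4% in SHAM. They have 3 and 2 exons, and how the reads of the shared exons were divided among the 3 isoforms was not tested. Onecut1 lies on chromosome 8, plus strand, from 81751225 to 81793577.

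Prox1, which holds back hepatocyte metabolic genes through HNF4A and NR5A2 and is needed for liver outgrowth in mice, was expressed at 15.6, 21.2, 23.4, 14.2 and 16.4 FPKM in SG livers 1 to 5 and at 19.6, 13.9, 11.9, 16.6 and 18.4 FPKM in SHAM livers 1 to 5. SG 2 and SG 3 were the highest libraries, and the ranges overlapped. The means were 18.2 ± 3.92 FPKM in SG livers and 16.1 ± 3.18 FPKM in SHAM livers (SD, n = 5 each), with a log2 fold change of 0.11 ± 0.18 (SE; edgeR, adjusted p = 0.993) and a 95% interval of the fold from 0.821 to 1.42. Only a small part of Prox1 lay on its annotated isoform, which averaged 0.541 ± 0.351 FPKM in SG livers and 0.522 ± 0.156 FPKM in SHAM livers. The assembled isoform MSTRG.6920.6 held 32.7% to 56.9% of the gene. Prox1 lies on chromosome 13, plus strand, from 108382399 to 108443294.

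How the members varied together was measured as the correlation of log2 CPM (estimated counts scaled to library size) over the 10 libraries in all 36 pairs, and none passed after adjustment. Foxa1 and Onecut1 had the highest Pearson r, 0.72 (permutation p = 0.00855, adjusted p = 0.308), with a Spearman rho of 0.64 (permutation p = 0.0533, adjusted p = 0.506). Without SG 1 and SG 2 this r was 0.56, and within groups it was 0.81 in SG and 0.61 in SHAM. Foxa2 and Onecut1 had r = 0.66 (permutation p = 0.0404, adjusted p = 0.48) and rho = 0.65 (permutation p = 0.0478, adjusted p = 0.506), with r = 0.74 without SHAM 3 and SHAM 5. Both pairs use Onecut1 counts, of which its long assembled isoforms held 80.5% to 84.7% in SG 2, SG 3 and SHAM 4. With log2(FPKM + 0.5) in place of log2 CPM, 0 pairs of members passed. Cebpb and Prox1 had r = -0.63 (permutation p = 0.055, adjusted p = 0.48) and rho = -0.73 (permutation p = 0.02, adjusted p = 0.506), but r was -0.24 without SG 3 and SHAM 3. Leaving out SHAM 2 alone gave 1 pair that passed, Cebpb and Nr5a2, with r = -0.87 (permutation p = 0.00135, adjusted p = 0.0486), against -0.55 over all 10 libraries.

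**Figure D4:**
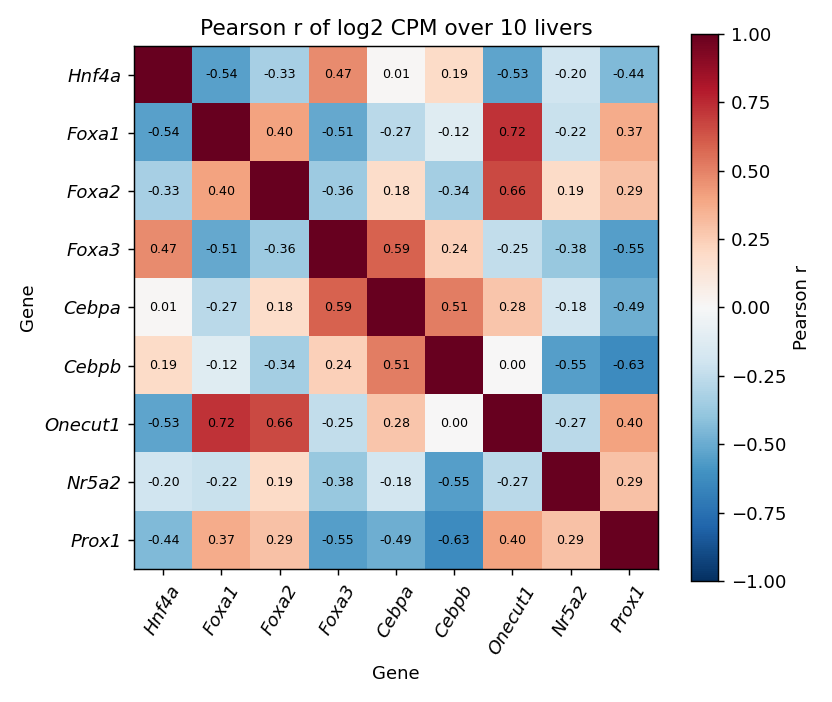
Pearson r of log2 CPM between each pair of the 9 genes over the 10 libraries, blue for negative and red for positive, with the value in each cell. Foxa1 with Onecut1, at 0.72, is the highest of the 36 pairs, and Cebpb with Prox1, at -0.63, the lowest.

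Of all tested genes, those whose log2 CPM followed a member most closely over the 10 libraries were picked for that likeness and so carry no test. Hnf4a was followed by Pank2 (r = 0.90), a pantothenate kinase gene, and Mab21l2 (0.90). Foxa1 was followed by AABR07070277 (0.92) and Arhgef15 (0.92), Foxa2 by Ell (0.93), an elongation factor gene, and Rnf168 (0.92), and Foxa3 by AABR07034767 (0.97) and Zfp384 (0.94). Cebpa was followed by Ciao3 (0.93) and Gsto1 (0.91), and Cebpb by Tmx2 (0.95) and U2af2 (0.93), which codes for a splicing factor. Onecut1 was followed by Fsd1l (0.97) and Rgs3 (0.93), Nr5a2 by Tnrc6c (0.95) and Phf20l1 (0.94), and Prox1 by Gmfg (0.92) and Ptprf (0.91). The median r of each member with all tested genes was between -0.01 and 0.00, and no member was among the closest genes of another.

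The series profiled long non-coding RNA, so isoforms of other genes and unannotated transcripts within 50 kb of a member were read as well. There were 46, of which 36 had a test. None had an unadjusted p under 0.05 by edgeR (smallest 0.0681), beside 4.12% of all tested isoforms. Most, 27, were assembled transcripts, none above 6.39 FPKM in any library. Opposite-strand transcripts that the table classes as intronic (class code i) lay inside Nr5a2, where 5 summed to 3.15 to 7.39 FPKM in SG and 3.05 to 6.67 FPKM in SHAM, and inside Hnf4a, where 4 summed to 5.29 to 7.83 FPKM in SG and 4.51 to 7.99 FPKM in SHAM. Also inside Nr5a2 on the opposite strand, outside that class, were MSTRG.6455.1, assembled under another gene's name, at 1.46 to 2.66 FPKM in SG and 1.32 to 2.10 FPKM in SHAM, and ENSRNOT00000083282, at or under 0.181 FPKM in every library. Without a stated strand protocol, reads of a gene and of its antisense partner cannot be told apart. A single-exon transcript of 4533 nt with no strand given, MSTRG.22732.1, lies 1740 bp downstream of Onecut1 and was at 1.80, 4.51, 3.34, 0.746 and 3.78 FPKM in SG livers 1 to 5 and at 2.32, 2.11, 5.43, 2.22 and 0.649 FPKM in SHAM livers 1 to 5, lowest in SG 4 and SHAM 5 as Onecut1 itself was.

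The genes around the members were read from lists of liver factors, cofactors and classical targets, and none of their genes was called. Of 22 other liver-enriched transcription factors, 10 had a positive and 12 a negative log2 fold change (median -0.06). Of the 22, 2 had an unadjusted p under 0.05 by edgeR, beside 4.53% of all tested genes. Nr2f2 (COUP-TFII), a nuclear receptor that competes with HNF4A for sites, averaged 16.3 ± 2.23 FPKM in SG livers and 12.1 ± 1.80 FPKM in SHAM livers (SD, n = 5 each), with no overlap between 14.8 to 20.1 FPKM in SG and 9.36 to 14.2 FPKM in SHAM. Nr2f2 had a log2 fold change of 0.32 ± 0.10 (SE; edgeR's unadjusted p = 0.00723, adjusted p = 0.991), and 1.34% of tested genes had ranges that did not overlap. Of 11 cofactors, 6 were positive and 5 negative (median 0.0). The pair with the smallest p, Ncor1 at 0.11 ± 0.11 and Ncoa3 at -0.11 ± 0.13, were near 0. In limma Ncoa3 had the opposite sign, at 0.03, beside a median of 0.08 over all tested genes. Ep300 was not analysed here.

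Among classical targets, 19 of HNF4A had 12 positive and 7 negative log2 fold changes with a median of 0.1. Otc, a urea cycle gene, averaged 125 ± 17.7 FPKM in SG livers and 92.7 ± 24.5 FPKM in SHAM livers (log2 fold change 0.35 ± 0.16), and F10, clotting factor X, averaged 96.0 ± 8.49 FPKM in SG livers and 77.2 ± 8.74 FPKM in SHAM livers (0.22 ± 0.12). The 10 FOXA targets had 4 positive and 6 negative values with a median of -0.03. They share Ttr, Apob and Serpina1 with the HNF4A list, and Alb, Tat, Pck1 and G6pc with the C/EBP list. These lists are thus not separate readings. Tat, tyrosine aminotransferase, was at -0.56 ± 0.32, with 695 FPKM in SHAM 2, and at -0.24 without that liver, and Afp, alpha-fetoprotein, was at 0.34 ± 0.24. The 12 C/EBP targets were split 6 and 6 (median 0.05). Of these, 1 had an unadjusted p under 0.05 by edgeR, beside 4.53% of all tested genes. This gene was Fabp1, the liver fatty acid binding protein, with 270.0 ± 44.2 FPKM in SG livers and 151 ± 36.5 FPKM in SHAM livers. Its log2 fold change was 0.73 ± 0.21 (edgeR, unadjusted p = 0.00618, adjusted p = 0.991).

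Of 10 tested targets of NR5A2, ONECUT1 and PROX1, 2 were positive and 8 negative (median -0.22), beside 52.6% negative among all tested genes. The member Hnf4a, at -0.07, is itself on this list and among the negative ones. Cyp8b1 is also on the HNF4A list, and Nr0b2 is also among the cofactors. The list's median ran from -0.35 to -0.06 as single livers were left out. In limma it was -0.04, beside 0.08 over all tested genes. Cyp7a1, the first enzyme of bile acid synthesis, averaged 38.6 ± 40.1 FPKM in SG livers and 102 ± 35.3 FPKM in SHAM livers, with a log2 fold change of -1.46 ± 0.68 (edgeR, unadjusted p = 0.0571, adjusted p = 0.991). Cyp7a1 was at 108 FPKM in SG 1, against 2.55 to 28.6 FPKM in the other SG livers, and without SG 1 its log2 fold change was -2.24 (edgeR, unadjusted p = 0.00466, adjusted p = 0.938). Abcg8, a sterol transporter gene, had 1.99 ± 0.96, which rested on 12.7 FPKM in SG 1 and was 0.49 without it. Of 10 immediate early and acute phase regulators, read beside Cebpb, 7 were positive and 3 negative (median 0.32), and the median was -0.05 without SG 2. Il6r, the interleukin 6 receptor, averaged 11.4 ± 2.99 FPKM in SG livers and 22.6 ± 15.2 FPKM in SHAM livers (log2 fold change -1.01 ± 0.37; edgeR, unadjusted p = 0.0199, adjusted p = 0.991), with 47.5 FPKM in SHAM 2 and a log2 fold change of -0.64 without that liver. Fos was at 0.87 ± 0.42, with 3.35 FPKM in SG 2, and at 0.43 without that liver. Of 6 clock genes, 2 were positive and 4 negative (median -0.22), Per1 at -0.43 ± 0.51 (-0.07 without SHAM 2) and Per2 at -0.20 ± 0.47, and the median ran from -0.66 to 0.37 as single livers were left out. No time of day of sampling is named in the labels.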

How the data were processed

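Ribosomal RNA was removed from total liver RNA with Ribo-Zero before paired-end sequencing, per the labels' protocols, and the submitters' processing notes name HISAT2 2.0.4, StringTie 1.3.4, cutadapt 1.9 and FastQC 0.10.1, with the build Rnor_6.0. For 51430 isoforms the authors deposited FPKM per library and estimated counts, which are whole numbers in a constant ratio to FPKM times length within a library. The labels and notes do not state how the counts were made or whether libraries keep strand.

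Both values were summed per gene symbol over class codes =, c, j and o. Estimated counts of genes at a mean of at least 1 FPKM, and of isoforms at a mean of at least 0.1 FPKM and above 0 in at least 5 libraries, were scaled by TMM and tested two-sided in edgeR 4.0.16 (R 4.3.3; glmQLFit and glmQLFTest) over all 10 libraries, with Benjamini-Hochberg adjustment over all genes or isoforms. DESeq2 1.42.0, limma 3.58.1 on log2(FPKM + 0.5), other scalings and filters, the replicate block and leaving out libraries were alternatives, and the fit was tested on simulated data. Correlations used 100000 permutations in Python 3.11.15. The members and lists were chosen with earlier results of these data known. From each list the 2 genes with the smallest p are named (1 gene among the liver factors is not reported here), for each member the 2 genes of highest r, and isoforms with at least 10% of a member in a library; ENSRNOT00000011978, the annotated Prox1 isoform, transcripts near members and the marker genes were chosen after their values were seen. No pairing of the libraries by replicate number was seen. Promoter sequences are RefSeq's (GRCr8), and their coordinates were not set against those of Rnor_6.0.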

Additional observations from a re-analysis of the deposited data

Results flagged for a closer look

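Within groups of 5 libraries, a highest or lowest value was marked where its gap to the nearest library, divided by the whole range of the group, was above Dixon's critical value of 0.71. Of 66 groups of member and isoform values, 9 were marked. The critical value is set to mark about 1 in 20 by chance, but that rate cannot be set beside this count. An isoform entered by holding at least 10% of its gene in some library, which can be the marked library itself. Foxa3, Cebpa and Cebpb entered both as gene and as sole isoform.

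The gene Hnf4a was marked for its highest SHAM library, SHAM 1, at 181 FPKM. Its isoform with the upstream start, ENSRNOT00000089893, was marked in both groups, at 49.7 FPKM in SG 3 and 44.9 FPKM in SHAM 5, and its isoform with the downstream start, ENSRNOT00000078703, at 6.35 FPKM in SG 3, where it was lowest. The Nr5a2 isoform MSTRG.6454.3 was also marked in both groups, at 4.46 FPKM in SG 4 and 1.09 FPKM in SHAM 1. The Prox1 isoform MSTRG.6920.3 was marked at 3.72 FPKM in SG 3, the Onecut1 isoform MSTRG.22730.2 at 1.83 FPKM in SHAM 4, and the Foxa1 isoform MSTRG.19758.3 at 1.10 FPKM in SHAM 1, the lowest of its group. No cause of these values was tested.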

How the results depend on the processing

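No member was called under any alternative run. DESeq2 called 12 genes higher and 6 lower in SG, edgeR 1 lower without SG 2 and SHAM 5 together, and limma on log2(FPKM + 0.1) 3 isoforms higher; leaving out 1 library gave 0 to 1 genes higher, 0 to 1 lower, 0 to 5 isoforms higher and 0 to 1 lower. The log2 fold change of Hnf4a was 0.02 in limma with each of 3 pseudocounts, and that of Ncoa3 0.03, 0.04 and 0.03. Over all tested genes the median in the same limma runs was 0.08, 0.088 and 0.072, against -0.01 in the main edgeR fit. Both genes thus lay below the median of all genes in limma, as they did in edgeR. Without SG 2 and SHAM 5 together, Foxa1 was at -0.00393 and Onecut1 at -0.36. With annotated isoforms alone, Onecut1 was at -0.14 and Nr5a2 at -0.07, Prox1 fell under the filter and could not be fitted, and the mean FPKM in SG and SHAM was 67.1 and 65.0 for Hnf4a, 6.80 and 4.32 for Foxa1, 6.99 and 4.78 for Foxa2, 2.15 and 2.16 for Nr5a2 and 0.541 and 0.522 for Prox1. On TMM-scaled counts the coefficient of variation of Onecut1 was 104%. Leaving out each library in turn gave log2 fold changes from -0.13 to 0.02 for Hnf4a, 0.00428 to 0.53 for Foxa1, -0.53 to 0.02 for Foxa3, -0.10 to 1.31 for Onecut1, -0.06 to 0.14 for Nr5a2, -0.00265 to 0.17 for Prox1 and -0.54 to 0.03 for Per2, a coefficient of variation of 17.8% to 48.3% for Foxa1, 0 to 1 pairs of members whose correlation passed, and a median of -0.05 to 0.44 for the immediate early and acute phase list. Foxa2, Cebpa and Cebpb kept their direction in all 19 alternatives. The cause of these shifts was not tested.

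The labels number the libraries 1 to 5 in both groups. Same-numbered libraries deviated together with r from -0.219 to 0.141, and 1 of 5 numbers was its own best match. No pairing was seen, though so few libraries cannot exclude a weak one. With the number as a replicate block, 0 genes and 0 isoforms were called, and Cebpb was at -0.72 (edgeR, unadjusted p = 0.041).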
